A study of Mus musculus with 4 samples.

Results

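The effect of a miR-17-92 retroviral vector on gene expression was measured in mouse lymphoma cells whose MYC was still on. The array of cells with the miR-17-92 vector was compared with the array of cells with the empty vector, both without doxycycline (DOX). All probes assigned to 1 gene were kept if their detection p-value was at most 0.01 on either array. This left 12123 of 45281 probes and 7782 of the 19057 genes on the array. Of these genes, 7248 were detected on both arrays, 342 in the miR-17-92 cells alone and 192 in the control cells alone.

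The study used CL4188, a conditional MYC lymphoma line of FVB/N background, with either the retroviral vector MSCV (control cells) or MSCV carrying miR-17-92 (miR-17-92 cells). DOX shuts off the MYC transgene in these cells. Besides the 2 cultures without DOX, both lines were also profiled after 48 hours of DOX at 20 ng/ml, which gives a second pair of arrays (MYC off) that shares no array with the first. Each of the 4 groups was 1 culture on 1 array. No test across replicates was therefore possible, and an effect of the vector cannot be told apart from a difference between 2 cultures. In the absence of replicates, each ratio was set beside the ratios of other probes of the same gene and beside the pair with MYC off.

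The miR-17-92 cluster is a polycistronic microRNA gene. Each mature microRNA guides an Argonaute protein to messenger RNAs that pair with its seed, the bases near its 5′ end, and the paired messengers are translated less and decay sooner, usually by modest amounts. MYC switches the cluster on, and raised miR-17-92 is a known driver of lymphoma and of lymphocyte survival. A vector that supplies the cluster to cells with MYC on thus adds to a cluster that these cells already transcribe.

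The 6 mature microRNAs that the cluster is known for are shown because their seeds define the target families used further on. The sequences and positions are from RefSeq, mouse build GRCm38.p6, all on the plus strand of chromosome 14 within 836 bases (chr14:115043671-115044506). The seed, bases 2 to 8, is in capitals.
miR-17-5p (chr14:115043684-115043706): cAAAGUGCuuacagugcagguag
miR-20a-5p (chr14:115044183-115044205): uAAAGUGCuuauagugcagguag
miR-18a-5p (chr14:115043867-115043889): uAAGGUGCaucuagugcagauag
miR-19a-3p (chr14:115044048-115044070): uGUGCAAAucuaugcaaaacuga
miR-19b-3p (chr14:115044358-115044380): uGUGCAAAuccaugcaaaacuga
miR-92a-3p (chr14:115044476-115044496): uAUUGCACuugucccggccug
The 6 microRNAs carry 4 seeds, one shared by miR-17 and miR-20a, one by miR-19a and miR-19b, and one each for miR-18a and miR-92a. These arrays do not read mature microRNAs, so the amount delivered by the vector was not measured.

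Both MYC-on arrays lay on 1 slide and both MYC-off arrays on another. The median raw signal was 138.7 in the control cells and 159.5 in the miR-17-92 cells with MYC on, and 13251 and 13656 probes were detected. Because the background was brighter on the miR-17-92 array, a dim probe could have a higher raw signal there and still a ratio below 1 after normalization. Below, raw signals are on a linear scale, and each log2 ratio is miR-17-92 cells over control cells after normalization. Of 38 T-cell marker genes on the array, 23 were detected in the control cells and 22 in the miR-17-92 cells with MYC on, Cd3e, Cd3d and Thy1 among them. Of 53 markers of other cell types, 4 were detected on each MYC-on array, namely Prf1, Pecam1, Vim and Krt8, and the B-cell, myeloid and erythroid markers were detected on neither. In bulk samples like these, fewer cells of a type and less RNA per cell cannot be told apart.

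The probe for Mir17hg, the host transcript of the endogenous cluster, had a raw signal of 1325 in the control cells and 1283 in the miR-17-92 cells with MYC on, a log2 ratio of -0.13. With MYC off it read 222 and 263, a log2 ratio of 0.55. Myc itself read 507 and 526 with MYC on, a log2 ratio of -0.07, and was not detected on either array with MYC off. Neither the host transcript nor Myc thus stood apart between the lines while MYC was on.

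The 2 lines were close to each other with MYC on. The log2 ratio had a median of 0.0038 and an SD of 0.33 over the 7782 genes, and 92.6% of the genes lay within 1.5-fold. A ratio of at least 2-fold was reached by 159 genes (2.04% of those analysed), by 93 in the upward direction (1.2%) and by 66 in the downward direction (0.848%). The spread depended on the signal. When the genes were split into 4 equal groups by signal, the SD was 0.55 in the dimmest group, 0.27 and 0.22 in the middle groups and 0.16 in the brightest. The dimmest group held 86 of the 93 genes that were 2-fold higher and 62 of the 66 that were lower, while the brightest held 1 and 0.

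**Figure D1:**
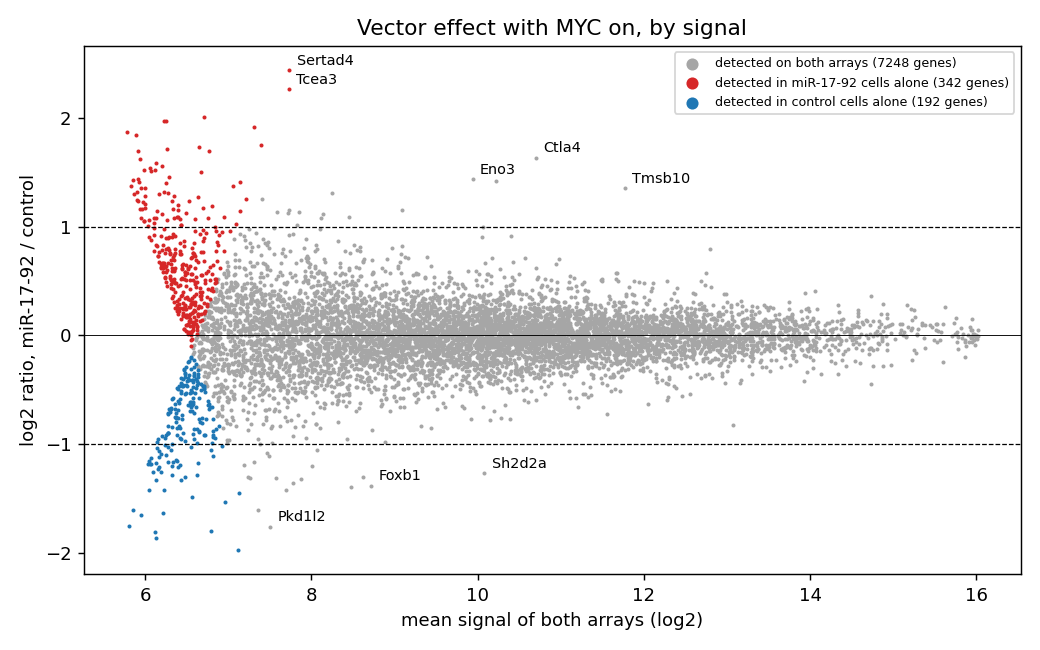
Log2 ratio of miR-17-92 over control cells with MYC on (vertical axis) against the mean normalized log2 signal of both arrays (horizontal axis), 1 point per gene for 7782 genes, with no error bars because each group is 1 array. Dashed lines mark 2-fold; the points narrow from left to right (SD 0.55 in the dimmest to 0.16 in the brightest of 4 equal groups), and few bright genes, Ctla4, Eno3 and Tmsb10 among the named ones, lie past the lines.

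Detection on both arrays set most of these genes aside. Among the 7248 genes detected on both, 15 lay 2-fold or more above the control cells (0.207%) and 18 lay 2-fold or more below them (0.248%). The other 126 genes past 2-fold were among the 534 detected on 1 array, of which they made up 23.6%. A gene that passed the detection filter through 1 array alone had to be brighter there, so its ratio is partly fixed by the filter. Just inside the detection threshold (p of 0.008 to 0.01), 217 probes had median raw signals of 196.1 and 206.2 and an SD of the log2 ratio of 0.65. Just outside it (0.01 to 0.012), 167 probes had medians of 191.5 and 198.8 and the same SD of 0.65. After normalization the median log2 ratio was -0.29 just inside the threshold and -0.36 just outside it. A further 1393 genes had a lowest detection p between 0.01 and 0.05 and were not analysed.

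Among the genes detected on both arrays, the highest ratios belonged to a mixed group of a T-cell receptor, metabolic enzymes, a cytoskeletal protein and transcription factors. Ctla4, the inhibitory T-cell receptor that competes with CD28 for its ligands, led them, with a raw signal of 991 in the control cells and 3153 in the miR-17-92 cells with MYC on, and of 1802 and 3440.3 with MYC off. Its level was thus 3.10-fold higher in the miR-17-92 cells with MYC on and 2.01-fold higher with MYC off. Eno3, which encodes the muscle form of the glycolytic enzyme enolase, read 652 and 1737 with MYC on and 616 and 763 with MYC off, 2.71-fold and 1.35-fold higher. Only the miR-17-92 array with MYC on stood apart for Eno3, since the other 3 arrays lay between 616 and 763.

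Tmsb10, which encodes thymosin beta 10, a protein that binds actin monomers, was the brightest of the genes past 2-fold. Its raw signals were 2235 and 6177 with MYC on and 8114 and 13221 with MYC off, 2.56-fold and 1.52-fold higher in the miR-17-92 cells. Its other probe gave a log2 ratio of 0.99 with MYC on against 1.35 for the brighter one. Both probes thus put the miR-17-92 cells higher.

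Ccnd1, which encodes cyclin D1 and drives the passage from G1 into S phase, read 204 and 371 with MYC on, a log2 ratio of 1.26, and its other probe was detected in the miR-17-92 cells alone. Neither array with MYC off detected it. Gfi1b, a zinc-finger repressor of blood cell development, read 219 and 389, a log2 ratio of 1.14, with its other probe again detected in the miR-17-92 cells alone, and it was also undetected with MYC off. Nme4, a mitochondrial nucleoside diphosphate kinase, read 276 and 577 (log2 1.31), but its other probes gave 0.94 and 0.33, and the mean of the 3, 0.86, fell short of 2-fold. Ccnd1, Gfi1b and Nme4 were thus dim in the control cells, and the second pair of arrays says nothing of them. Selenon, a selenoprotein of the endoplasmic reticulum, and the zinc-finger gene Osr2 were in the same position, with log2 ratios of 1.13 and 1.11.

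Nkd1, an inhibitor of WNT signalling that binds Dishevelled, read 432 and 911 with MYC on and 268 and 434 with MYC off, and the miR-17-92 cells were higher by log2 1.16 and 1.11. St3gal1, a sialyltransferase that caps O-glycans, read 230.0 and 419 with MYC on and 189 and 361 with MYC off, with log2 ratios of 1.15 and 1.62. Plod2, a lysyl hydroxylase of procollagen, read 316 and 604 with MYC on and 486 and 849.7 with MYC off. By the brightest probe of each of these 3 genes the miR-17-92 cells were higher by at least 2-fold in both pairs. The other probe of Nkd1 gave 0.61 with MYC on and was undetected with MYC off, and the mean of its probes, 0.88, fell short of 2-fold. Slc4a4, a sodium bicarbonate cotransporter, was higher by log2 1.14 with MYC on and by 0.45 with MYC off. Of the 12 highest named genes, only Ctla4, Eno3 and Tmsb10 stayed past 2-fold with MYC on when the authors' processed values were used.

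The lowest ratios among genes detected on both arrays included receptors, transporters and adaptors of signalling. Pkd1l2, a member of the polycystin family, read 403 in the control cells and 219 in the miR-17-92 cells with MYC on, and 3372 and 795 with MYC off. It was 3.38-fold lower with MYC on and 5.22-fold lower with MYC off, and its other probe gave a log2 ratio of -2.53 with MYC off. Its MYC-on signal of 219 in the miR-17-92 cells was close to 211.6, the lowest detected on that array. With the authors' processed values its log2 ratio with MYC on was -0.99. Marchf2, a membrane-bound ubiquitin ligase, read 408 and 243 with MYC on and 1353 and 269 with MYC off, 2.67-fold and 7.46-fold lower. Its other probe gave -2.85 with MYC off on the log2 scale. With MYC on, the other probe of either gene was detected in the control cells alone. Both genes were thus lower in the miR-17-92 cells in both pairs by their brightest probe, and with MYC off by both probes.

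Sh2d2a, which encodes the T-cell adaptor TSAd, was the brightest of the lower genes named here. Its raw signals were 1723 and 791 with MYC on and 8862 and 3709.5 with MYC off, 2.41-fold and 2.75-fold lower. Dok2, an adaptor that restrains tyrosine kinase signalling in blood cells, read 314 and 217 with MYC on and 4914 and 1952 with MYC off, 2.47-fold and 2.89-fold lower. The control array with MYC off was the highest of the 4 for both adaptors. Ltb, a subunit of the lymphotoxin heterotrimer, read 371 and 238 with MYC on and 4626 and 2732 with MYC off, 2.48-fold and 1.88-fold lower.

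Ankrd22, an ankyrin repeat gene, read 668 and 357 with MYC on and 2715 and 924 with MYC off, and its 2 probes gave -1.30 and -1.58 with MYC on. Foxb1, a forkhead transcription factor, read 729.8 and 369 with MYC on, a log2 ratio of -1.38, but its ratio with MYC off was -0.65, and its dimmer probe, undetected in the miR-17-92 cells with MYC on, gave -2.43 with MYC on and -0.09 with MYC off. Anxa2, which encodes the membrane-binding annexin A2, read 454 and 282 with MYC on and 2167 and 945 with MYC off. All 3 genes were lower in the miR-17-92 cells in both pairs. Lgals3bp, a secreted glycoprotein that binds galectins (log2 -1.61 and -1.43), and Fxyd5, a regulator of the sodium pump (-1.36 and -1.41), were also past 2-fold in both pairs. The 3 probes of Fxyd5 ran from -1.36 to -0.38 with MYC on. The nucleoside transporter gene Slc28a2b (-1.32 and -2.24) and F2rl3, a thrombin receptor of the PAR family (-1.31, and at least 2.56-fold lower with MYC off), completed the 12 lowest. Of these 12, only Sh2d2a and Foxb1 stayed past 2-fold with MYC on when the authors' processed values were used.

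**Figure D2:**
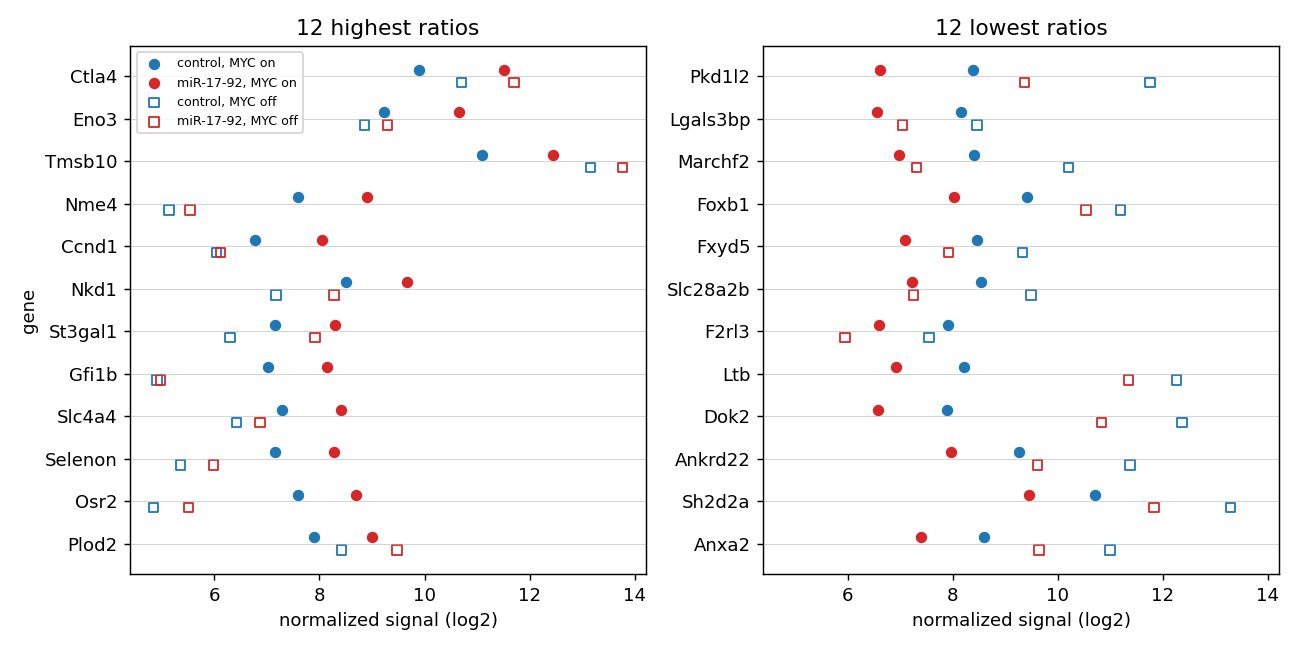
Normalized log2 signal on all 4 arrays (horizontal axis) for the 12 named genes with the highest (left) and the 12 with the lowest (right) ratio among those detected on both MYC-on arrays. Each symbol is 1 array, filled with MYC on and open with MYC off, blue for control and red for miR-17-92 cells; on the right the red symbol lies left of the blue one in both pairs for all 12 genes.

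For genes detected on 1 array the ratio is given as a lower bound, set against the lowest signal that was still detected on the dim array. Sertad4, a member of the SERTA domain family, had a raw signal of 189.7 in the control cells, where it was not detected, and 592 in the miR-17-92 cells. Its bounds were at least 5.05-fold higher with MYC on and 2.82-fold or more with MYC off. Tcea3, a transcription elongation factor of the TFIIS family, read 194 and 563 with MYC on and 194 and 664 with MYC off, at least 4.73-fold and 6.45-fold higher. Sccpdh, a gene of the saccharopine dehydrogenase family, read 181 and 410.2 with MYC on and 123 and 474 with MYC off, with bounds of 3.12-fold and 4.92-fold or more. All 3 were low in both control cultures and clearly detected in both miR-17-92 cultures.

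Nipa1, which encodes a magnesium transporter, was at least 3.13-fold higher with MYC on and undetected with MYC off. Ndrg1, a stress- and hypoxia-responsive gene, was at least 2.34-fold higher with MYC on by a probe that the control cells left undetected, as they did its other probe, yet it read 657 and 558 with MYC off, a log2 ratio of -0.21. The receptor tyrosine kinase gene Ephb4 had bounds of 2.34-fold or more with MYC on and 1.73-fold or more with MYC off. The dimmer probe of Ephb4 was detected in the miR-17-92 cells alone with MYC on and lay below the detected range on both arrays with MYC off.

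In the other direction, Tspoap1, a scaffold protein gene, was at least 3.07-fold lower with MYC on and 2.09-fold lower with MYC off, both times in the cells with the cluster. Fermt3, which encodes kindlin-3, an activator of integrins in blood cells, read 310.4 and 207 with MYC on and 2885 and 1217 with MYC off, at least 2.59-fold and 2.63-fold lower. Rab3d, a small GTPase of regulated secretion, read 289 and 186 with MYC on and 3184 and 687 with MYC off, at least 2.32-fold and 5.85-fold lower. Plxdc1, a plexin domain gene, was at least 2.36-fold lower and 2.22-fold lower with MYC off. For these 4 genes the control cells were the brighter of the lines in both pairs. Tctex1d1 (at least 1.92-fold lower) and Tigit, another inhibitory receptor of T cells (at least 1.84-fold lower), differed little with MYC off, by log2 -0.19 and -0.03.

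Agreement between probes gave a measure of error within the pair. Of the genes analysed, 2964 had at least 2 detected probes, and the spread per probe, taken from the gap between the brightest and the next, was 0.17 on the log2 scale. With these genes in 4 equal groups by the signal of the dimmer probe, it was 0.34 in the dimmest and 0.10 in the brightest group. Over all these genes the next probe went the same way in 64.4% of cases, with a Pearson r of 0.45 and a Spearman coefficient of 0.40 across genes, which are not independent replicates. In 22 genes the brightest probe showed at least a 2-fold ratio; the next one had the same sign in 20 of them (90.9%) and was itself past 2-fold in 11. In 8 of the 22 genes several probes were detected on both arrays, and all 8 agreed in sign; in the others a probe was detected on 1 array alone, so that its direction was partly fixed by the filter. Past 1.5-fold, it did so in 75 of 90 genes (83.3%). The exceptions among the 22 were Slc7a7, with log2 ratios of -1.21 and 0.89, and Antxr1, with -1.10 and 0.47. For both, no direction can be given.

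Ranked by the probe that moved least, the upper end of the multi-probe genes held Csnk1e, which encodes casein kinase 1 epsilon (at least 1.86-fold higher, but log2 0.16 with MYC off), and then Ccnd1, Ephb4, Ndrg1, Gfi1b, Plod2, Tlcd3a (at least 1.25-fold higher), Osr2, Tmsb10 and Cdkn1a. Of these, Plod2, Osr2 and Tmsb10 had both probes detected on both MYC-on arrays. Both probes of Csnk1e, Ephb4, Ndrg1, Tlcd3a and Cdkn1a were undetected in the control cells, so these genes entered through the miR-17-92 array and their place in the order rests on ratios to undetected signals. Cdkn1a encodes the cyclin-dependent kinase inhibitor p21. It read 191 in the control cells, undetected, and 294 in the miR-17-92 cells with MYC on, at least 1.84-fold higher. With MYC off it read 176 and 395, at least 3.85-fold higher, while its other probe gave a log2 ratio of 0.48.

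The lower end held Pkd1l2, Foxb1, Ankrd22 and Marchf2, followed by genes between 1.5-fold and 2-fold or just past it. Pdlim2, a PDZ and LIM domain protein gene, had probes at -0.81 and -1.01, and Kcnh2, a potassium channel gene, at -0.78 and -1.04. The class I histocompatibility gene H2-T10 had probes at -0.76 and -0.78, and it read 1668 and 1057 with MYC on and 1638 and 1359 with MYC off. Cyp4f16 (-0.96 and -0.74), Acbd4 (-1.06 and -0.66) and the interleukin 27 receptor gene Il27ra (-0.66 and -1.21) completed the 10. By their brightest probes these 6 genes were also lower in the miR-17-92 cells with MYC off, by log2 -0.28 for H2-T10 to -1.87 for Kcnh2. The other probe went the same way there for Pdlim2, Kcnh2, Cyp4f16 and Acbd4, but gave 0.02 for H2-T10 and 0.36 for Il27ra. The dimmer probes of Pkd1l2, Foxb1, Marchf2, Pdlim2 and Cyp4f16 were not detected in the miR-17-92 cells with MYC on.

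**Figure D3:**
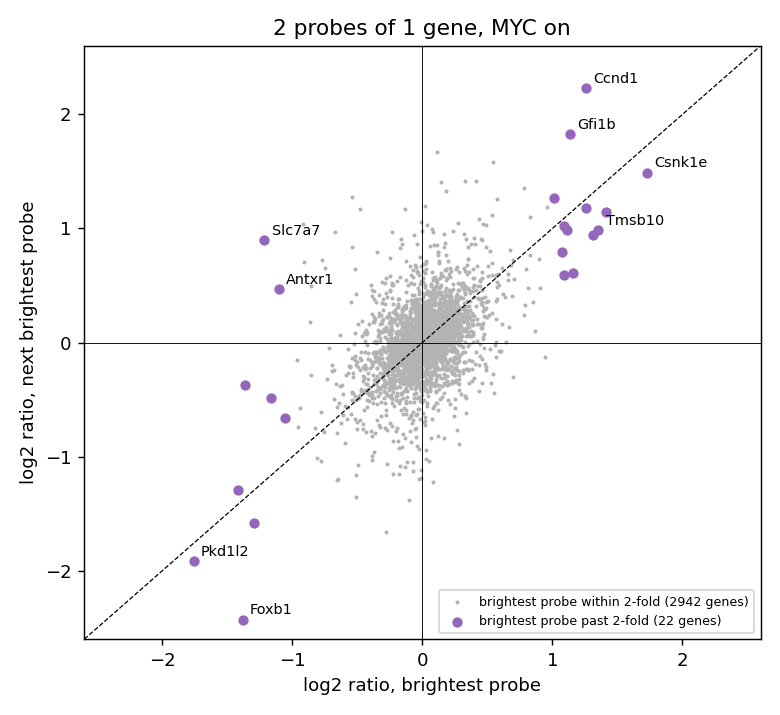
Log2 ratio with MYC on of the brightest probe (horizontal axis) and of the next brightest probe (vertical axis) of the same gene, 1 point per gene for 2964 genes with several detected probes; the dashed line marks equal ratios. Purple points are the 22 genes whose brightest probe is past 2-fold, and 20 of them lie in the quadrants of equal sign, with Slc7a7 and Antxr1 outside.

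The pair with MYC off differed more widely between the lines, with an SD of 0.64 over the 7453 genes detected on at least 1 of its arrays, and 10.5% of these genes were past 2-fold (6.7% higher and 3.78% lower) and 31.5% past 1.5-fold. Over all 7453 genes, 58.4% had ratios of the same sign in both pairs (Pearson r 0.29 and Spearman coefficient 0.25 across genes). With MYC off, 48.6% of these genes had ratios below 0 and 51.3% above, with a median of 0.016. Of the genes past 2-fold with MYC on, 99 could be read with MYC off. The ratio had the same sign in 79 of them (79.8%) and was past 2-fold the same way in 34, and it was past 2-fold the opposite way in 4. A further 44 of the higher and 16 of the lower genes were not detected with MYC off.

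Detection separated these genes. All 28 that were detected on both MYC-on arrays and could be read with MYC off kept their sign there, and 19 were past 2-fold again, 6 of 10 higher and 13 of 18 lower. Their median log2 ratio with MYC off was 1.02 for the higher and -1.42 for the lower genes. Of the 71 that were detected on 1 MYC-on array, 51 kept the sign (71.8%), 15 were past 2-fold again and 4 were past 2-fold the other way. At any size of ratio, 62.6% of the 353 genes detected on 1 MYC-on array and read with MYC off kept the sign. Of the genes detected on both MYC-on arrays, 3.64% were past 1.5-fold, and 198 of the 243 that could be read with MYC off kept the sign (81.5%). Both pairs hold the same 2 lines, so the second pair does not repeat the infection.

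**Figure D4:**
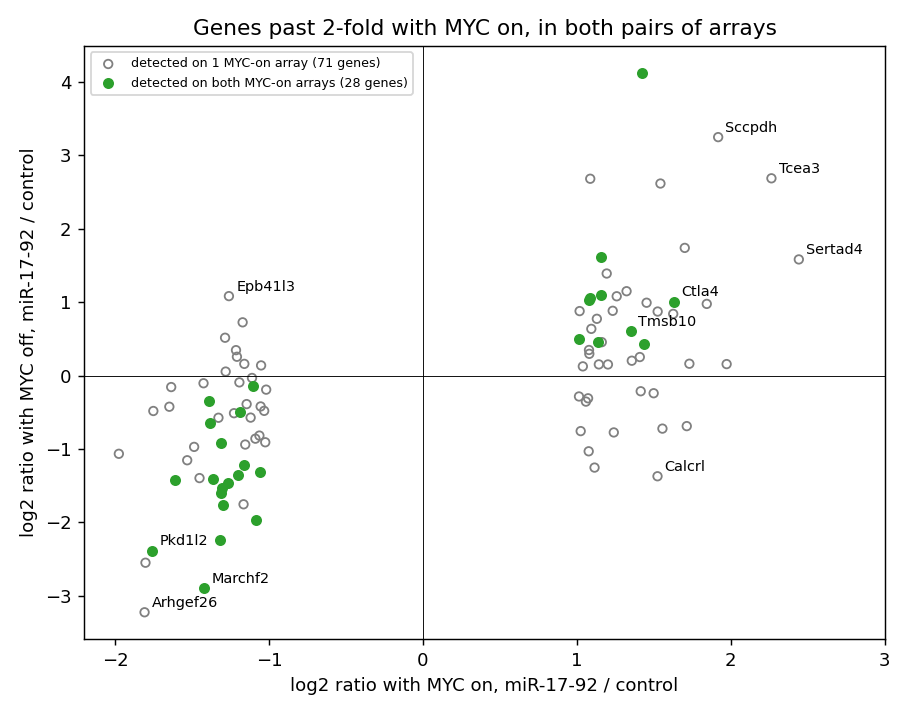
Log2 ratio of miR-17-92 over control cells with MYC on (horizontal axis) and with MYC off (vertical axis) for the 99 genes past 2-fold with MYC on and detected in the MYC-off pair. Filled points are the 28 genes detected on both MYC-on arrays, all in the quadrants of equal sign; open points are the 71 detected on 1 of them, which also fall in the other quadrants, Calcrl and Epb41l3 for example.

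Besides genes already described, the measured ratios past 2-fold in both pairs on the higher side included those of Cercam, Them5 and Decr1. Cercam had bounds of 2.00-fold and 1.82-fold or more. Them5, an acyl-CoA thioesterase gene, read 139 and 231 with MYC on but 437 and 1949 with MYC off, and its MYC-on bound was 1.15-fold. Decr1, a mitochondrial enzyme of fatty acid oxidation, had bounds of 1.72-fold and 1.54-fold or more. The thrombin receptor gene F2r was detected in the miR-17-92 cells alone in both pairs, with log2 ratios of 1.32 and 1.15, and Adgrb3, an adhesion receptor gene, with 1.09 and 2.68. No MYC-on bound could be given for F2r, and that of Adgrb3 was 1.83-fold. On the lower side, Arhgef26, which encodes a guanine nucleotide exchange factor, read 220.2 and 157 with MYC on and 619 and 138 with MYC off. Its lower bounds were 1.45-fold and 6.39-fold. Each of these genes was detected on 1 of the MYC-on arrays, so its direction there was partly fixed by the filter. The bounds with MYC on do not place any of them past 2-fold.

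Next, 5 targets known to have been named by the study were read one by one, since they code for the chromatin and survival regulators it took to be repressed by the cluster. As the study may have chosen them on these arrays, their direction is not independent evidence. Sin3b, the scaffold of a histone deacetylase complex, had a raw signal of 875 in the control cells and 734 in the miR-17-92 cells with MYC on, a log2 ratio of -0.37. With MYC off it read 2113 and 951, a ratio of -1.30. Bcl2l11, which encodes the pro-apoptotic BH3 protein BIM, read 522 and 444 with MYC on and 1951 and 568 with MYC off, with log2 ratios of -0.43 and -2.03. Its other probe gave -0.79 and -1.71. Sin3b and Bcl2l11 were thus lower in the miR-17-92 cells in both pairs, by less with MYC on.

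Btg1, an antiproliferative gene, read 1294 and 1178 with MYC on and 18194 and 12612 with MYC off, ratios of -0.24 and -0.74, and its other probe gave -0.49 and -1.24. Kmt5b, a histone H4 lysine methyltransferase, read 592 and 546 with MYC on and 2367 and 1135 with MYC off, ratios of -0.25 and -1.18. Its 3 probes ran from -0.25 to 0.01 with MYC on. Hbp1, an HMG-box repressor of cell cycle genes, read 545 and 558 with MYC on, a ratio of -0.07 that became 0.04 when its 4 probes were averaged, and 9166 and 2908 with MYC off, a ratio of -1.89. All 5 targets had ratios below 0 in both pairs by their brightest probe, with a median of -0.25 with MYC on and -1.30 with MYC off. None was past 1.5-fold with MYC on, where 3.97% of all genes were at least 1.5-fold higher, 3.38% at least 1.5-fold lower and 49.3% below 0.

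Among 68 other genes reported as targets of the cluster, 64 were on the array and 43 were analysed. Of these, 25 had ratios below 0 and 18 above, with a median log2 ratio of -0.09, beside 49.3% below 0 and a median of 0.0038 over all genes. None was 2-fold lower and 1 was 2-fold higher (Ccnd1), while 2 were past 1.5-fold lower and 4 past 1.5-fold higher. Among the genes past 1.5-fold, Icam1, Ccnd1 and Rhob were detected on both arrays. Sbf2, which was lower, was detected in the control cells alone. Cdkn1a and Pias3, which were higher, were undetected in the control cells. The direction of Sbf2, Cdkn1a and Pias3 was thus partly fixed by the filter. With MYC off, 25 of 42 were below 0, with a median of -0.13, beside 48.6% and a median of 0.016 over all genes read there. In both pairs, 19 were below 0. By seed, the median with MYC on was -0.15 for 21 targets of miR-17 and miR-20a, -0.11 for 9 of miR-19, 0.01 for 8 of miR-18a and 0.02 for 7 of miR-92a, and some genes are in 2 of these lists. The miR-19 value was -0.34 with the mean of the probes and -0.05 when detection on both arrays was required, and the miR-18a value was -0.03 under the latter rule.

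Among the reported targets of miR-17 and miR-20a, the adhesion receptor gene Icam1 had the lowest ratio. It read 371 and 280.3 with MYC on and 1095 and 588 with MYC off, log2 ratios of -0.84 and -1.02. E2f2, an E2F transcription factor, read 7735 and 5525 with MYC on, a ratio of -0.54, and its 3 probes ran from -0.54 to -0.34. With MYC off E2f2 read 17032 and 18227, a ratio of -0.08. E2f1 and Rbl1, which encodes the pocket protein p107, were slightly lower with MYC on (-0.25 and -0.27) and higher with MYC off (1.30 and 0.87).

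At the other end of this family, Vegfa, the angiogenic growth factor, read 456 and 636 with MYC on and 475 and 1314 with MYC off, ratios of 0.46 and 1.83. Ccnd1 and Cdkn1a were other reported targets that stood higher where the cluster was added. Both probes of Cdkn1a and the dimmer probe of Ccnd1 were undetected in the control cells with MYC on. The direction of these probes was thus partly fixed by the filter. The brightest probes of Vegfa and Ccnd1 were detected on both arrays with MYC on, but Ccnd1 was undetected with MYC off. The ratios of Trim8 (-0.03), Mapk9 (0.10) and Txnip (0.01) were small and changed sign under another treatment of the probes or of the signal, to 0.011, -0.16 and -0.17.

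Among the reported targets of miR-19, Cyld, a deubiquitinase that restrains NF-kappaB, read 1477 and 1177 with MYC on and 2935 and 1859 with MYC off, log2 ratios of -0.42 and -0.75, and its other probe gave -0.43. Socs1, a feedback inhibitor of cytokine signalling, stood at -0.52 and -0.35, and Sbf2, detected in the control cells alone, at -0.69 and -0.90. Rhob, a small GTPase, went the other way, with 579.9 and 958 with MYC on and 407 and 553 with MYC off, ratios of 0.72 and 0.67. Ppp2r5e lay at 0.0085 by its brightest probe and at -0.34 by the mean of its probes. The reported targets of miR-18a ran from Dicer1 at -0.12 to Pias3 at 0.67. Both probes of Pias3 were undetected in the control cells with MYC on, and no lower bound could be given for it. Those of miR-92a ran from the antiproliferative gene Tob1 at -0.46 to the phosphatase gene Ptpn6 at 0.26.

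**Figure D5:**
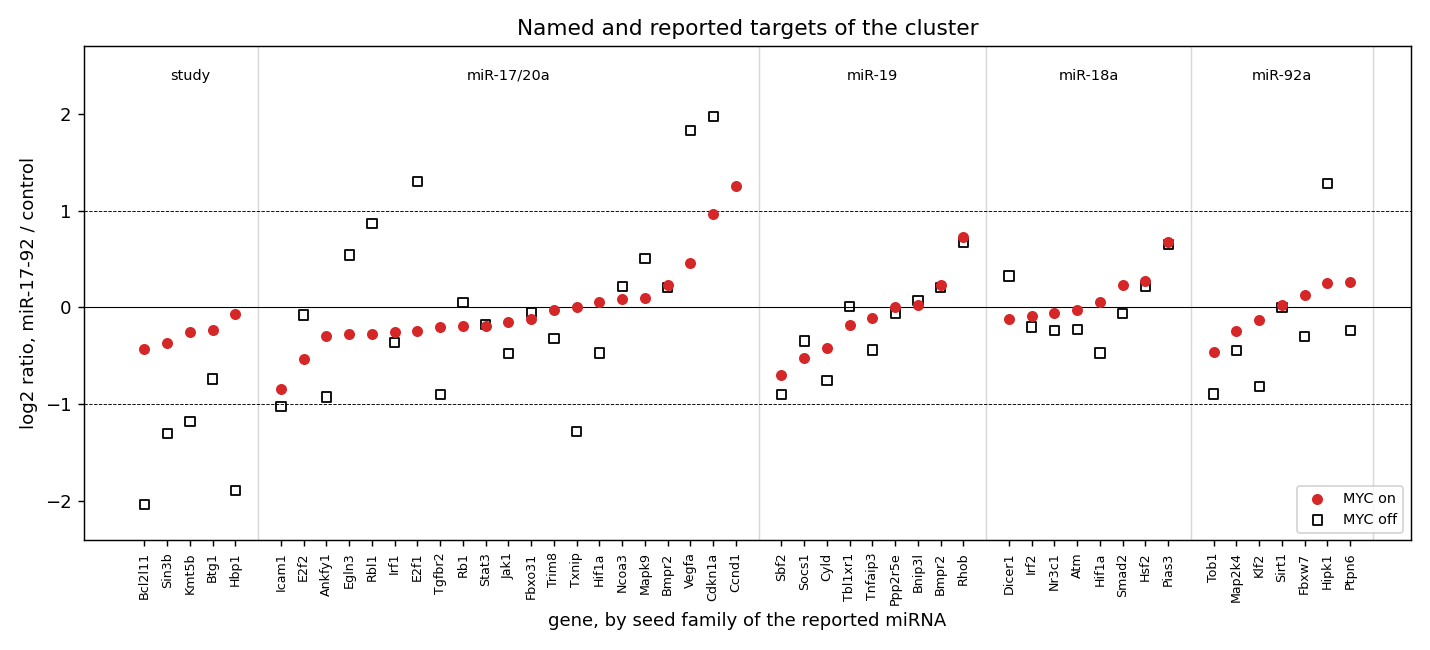
Log2 ratio of miR-17-92 over control cells (vertical axis) for the 5 targets named by the study and the reported targets of each seed family (horizontal axis, ordered by the MYC-on ratio), filled with MYC on and open with MYC off; dashed lines mark 2-fold. With MYC on all but Ccnd1 lie between the dashed lines; the open symbols spread more widely, from -2.03 for Bcl2l11 to 1.97 for Cdkn1a.

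The machinery of microRNAs itself showed no ratio past 1.5-fold with MYC on. Of 29 genes analysed, 14 lay above 0 and 15 below, with a median of -0.06, beside -0.45 with MYC off. Tnrc6c, which encodes a GW182 protein that recruits deadenylases to Argonaute, was lowest at -0.43, with its other probe at -0.57, and Tnrc6a stood at -0.30. Xpo5, the exporter of precursor microRNAs, lay at -0.35 and the decapping factor gene Dcp1a at -0.33. Pan3, a deadenylase subunit, was highest at 0.35, and Ago2, the slicing Argonaute, stood at 0.20. Among 29 chromatin repressors, Arid4b was the sole gene with a measured ratio past 2-fold (-1.06, at least 1.16-fold lower), detected in the control cells alone. Suz12, a Polycomb subunit, was lower by -0.41 on a bright probe, which read 20115 and 15822. The median was -0.04, and it was 0.0034 when detection on both arrays was required.

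Genes of DNA replication were slightly lower in the miR-17-92 cells with MYC on. Of 42 analysed, 34 had ratios below 0, with a median of -0.14, none was past 1.5-fold, and all genes together had 49.3% below 0. Gins2, a subunit of the replicative helicase, read 2251 and 1741 with MYC on (-0.44; next probe -0.19) and 477 and 1865 with MYC off (2.38). Rrm2, the small subunit of ribonucleotide reductase, read 3170.1 and 2501 with MYC on (-0.39; next probe -0.77) and 2298 and 3166 with MYC off (0.49). Gins3 was lowest with -0.50, and Orc2, of the origin recognition complex, highest with 0.32. With MYC off all 42 were above 0, with a median of 1.26, and 28 were past 2-fold, beside 51.3% of all genes above 0 there. The pairs thus had opposite signs for this list.

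Histone genes followed the same order. Of 19 analysed, 16 were below 0 with MYC on, with a median of -0.26, and 18 were above 0 with MYC off, with a median of 0.94. H4c8 read 745 and 541 with MYC on and 436 and 702 with MYC off (-0.66 and 0.94), and H2ac4 read 717 and 548 with MYC on and 267 and 513 with MYC off (-0.57 and 1.45). Replication-dependent histone genes are near-identical copies, so a single member is uncertain and the counts are not of independent observations. The variant gene H2ax, which marks DNA breaks when phosphorylated, stood at -0.50 and 0.43. Mitotic genes lay closer to 0 with MYC on, 22 of 33 below it with a median of -0.02, and 32 of 33 were above 0 with MYC off. Spc24 of the kinetochore was lowest at -0.39 and Aurka highest at 0.19.

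Among the cell cycle regulators upstream of these genes, Ccnd1 and Cdkn1a had the highest ratios. Of 10 E2F and pocket protein genes, 7 were below 0 (median -0.08), from E2f2 at -0.54 to E2f6 at 0.27. Of 11 G1 cyclins and their partners, 7 were above 0 (median 0.06, or -0.03 with the mean of the probes). Ccne1 read 1205 and 1678 (0.41) and Ccnd2 905 and 1213 (0.37, next probe 0.45), both higher with MYC off too (0.97, and 1.14 where the control cells did not detect Ccnd2). The kinase inhibitors of the INK4 class, Cdkn2d, Cdkn2c and Cdkn2a, lay between -0.23 and -0.22, and Cdkn1a at 0.96. Of 31 genes known to be activated by MYC, 20 were above 0 with a median of 0.05. Pa2g4, a growth regulator, was highest, with 16441 and 23209 (0.41), then Gnl3, which encodes nucleostemin (0.39), and Nolc1 was lowest (-0.34).

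Among 23 T-cell genes, 10 lay above 0 and 13 below, with a median of -0.07, and Ctla4 was the sole one past 2-fold. Bcl11b, the transcription factor of T-cell commitment, was lower by -0.43, and its 4 probes included a next one at -0.44; it read 10197 and 7806 with MYC on and 31614 and 25926 with MYC off. Cd27, a costimulatory receptor, read 6690.3 and 4996 (-0.48; next probe -0.46), and Cd6, a surface receptor, stood at -0.50. Lat, the adaptor of the T-cell receptor, read 11541 and 8926 (-0.43). Tespa1, detected in the control cells alone, was lowest at -0.88. Cd4 stood at 0.41 and Cd3d at -0.02. With MYC off 20 of the 23 were below 0 with a median of -0.58, beside 48.6% of all genes, and 13 were below 0 in both pairs.

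Among the NF-kappaB genes, 9 of 16 were below 0 with MYC on (median -0.06) and 15 of 16 with MYC off (median -0.41). Over all genes, 49.3% were below 0 with MYC on and 48.6% with MYC off. Icam1 was lowest, followed by Nfkbia, the inhibitor IkappaB alpha (1091 and 864; -0.45 and next probe -0.30), and Cyld. Of 18 interferon-induced genes, 16 were below 0 with MYC on, with a median of -0.13, and 14 of the 16 that could be read with MYC off were below 0 there. Parp14, an ADP-ribosyltransferase gene, was at least 1.19-fold lower and was undetected in the miR-17-92 cells with MYC on. The guanylate-binding protein gene Gbp3 stood at -0.96, though its next probe gave -0.15. Irf9, a subunit of the interferon response factor ISGF3, stood at -0.44. It was detected in the control cells alone and was at least 1.29-fold lower. The other 13 genes below 0 lay between -0.31 and -0.02. Class I antigen presentation was mixed, with H2-M3 at -0.85 (435 and 315), the peptide transporter gene Tap2 at -0.43 (3459 and 2663) and Calr, which encodes calreticulin, at 0.46. The median of its 14 genes was -0.05, or 0.015 with the mean of the probes.

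Cytokine receptor and JAK-STAT genes had a median of -0.03 over 20 genes (0.09 with a detection p of up to 0.05), with Socs1 lowest and Pias4 at -0.48 and Tyk2, a Janus kinase, at -0.36. Among the pro-apoptotic genes, 9 of 15 were below 0 with a median of -0.03. Bcl2l11 was the lowest of them, Fas, the death receptor gene, stood at 0.39 (next probe 0.57), and Bak1, detected in the miR-17-92 cells alone, at 0.78. Bbc3, which encodes the BH3 protein PUMA, stood at 0.13 with MYC on and -1.96 with MYC off. Of 8 survival genes, Birc3 had a measured ratio past 2-fold (1.04), but it was detected at the floor of the miR-17-92 array alone, and Mcl1 was lowest (-0.31). The median was 0.09, or -0.03 with detection on both arrays.

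The brakes of PI3K signalling and the FOXO genes had a median of 0.05 over 13 genes, which became -0.05 with detection on both arrays. Pik3ip1, an inhibitor of PI3K, was lowest, with 254 and 217 with MYC on and 2998 and 1215 with MYC off (-0.81 and -1.46). Irs2, an insulin receptor substrate, stood at 0.46 and 0.71. TGF-beta and SMAD genes had a median of 0.23 with 11 of 17 above 0, and a median of 0.14 with detection on both arrays. Bmpr1a (1.53, a bound of 1.09-fold) and Tgfb2 (0.98) led it but were detected in the miR-17-92 cells alone. Acvr2b, an activin receptor gene, was detected on both arrays and read 966 and 1416 (0.51), with 0.82 in the pair with MYC off. Tgfbr3 stood at -0.49. Genes of the p53 circuit had a median of 0.08, or -0.11 with detection on both arrays, with Cdkn1a, Eda2r (0.95), Sesn2 (0.66) and Mdm4 (0.64) detected in the miR-17-92 cells alone.

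Metabolic and stress genes were near 0 as groups with MYC on. Of 13 glycolytic genes, Eno3 was past 2-fold and the other 12 lay between -0.26 and 0.35, with a median of 0.03, beside 1.17 with MYC off. Hypoxia-responsive genes had a median of 0.03 over 17 genes. It was below 0 under both other detection rules, at lowest -0.016. Ndrg1, P4ha1, a prolyl hydroxylase of collagen (381 and 593, log2 0.68), and Vegfa were at the top and Anxa2 at the bottom. P4ha1 and Plod2, which both modify collagen, were higher in the miR-17-92 cells in both pairs. Among 27 ATF4 and unfolded protein response genes the median was 0.07. Chac1, which breaks down glutathione, read 250.1 and 385 (0.78) and Ddit3, which encodes CHOP, 219 and 315 (0.67; next probe 0.13), while Xbp1 stood at -0.43 with 5627 and 4332. Sterol and fatty acid synthesis genes had a median of 0.05 over 26 genes, from Fasn at -0.63 to Cyp51 at 0.39. Fasn was detected in the control cells alone and was at least 1.14-fold lower. Redox genes had a median of -0.03 over 23 (0.0083 with the authors' processed values), with Gsta4 lowest at -0.39. Immediate early and heat shock genes had a median of 0.08 over 15, with Egr1 (0.75) and Zfp36 (0.67) highest.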

How the data were processed

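Per the labels' protocols, biotin-labelled cRNA made from total RNA of 4 cultures was read on Illumina mouse bead arrays. The deposited table without normalization gives, per the file headers, a mean bead intensity and a detection p-value for each probe and array. GenomeStudio is named in the submitters' processing notes, without a version. The detection columns carry slide positions, and each was linked to the array whose intensities it ordered with 0 breaks (at least 16605 against any other array). The authors' deposited processed intensity values were linear in the raw ones (r = 1) on each array and served as an alternative.

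In limma 3.58.1 (R 4.3.3), nec removed background by a normal-exponential fit. It took the level of negative controls from the deposited detection p-values and added an offset of 16. The log2 values computed from the deposited intensities were quantile normalized over the 4 arrays, so each ratio is relative to the other genes. Platform annotation gave 1 gene to 34885 probes and several to 18, and 10378 were unnamed. By gene number 34807 matched a current symbol, and 78 kept the old one. Each gene is its brightest probe among those that either array of the pair detected (p of 0.01 or less). Where 1 array did not detect it, the ratio is a lower bound against the higher of the dim probe's signal and the lowest detected signal there. Counts and medians use the measured ratios.

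With 1 array a group no test was run. The gap between the brightest and next probe gives the spread per probe, as its robust SD over the square root of 2. Genes named are the 12 highest and lowest ratios detected on both arrays, the 6 highest bounds each way, the 10 multi-probe genes each way by their least moved probe, the 12 each way past 2-fold in both pairs, the targets, Mir17hg, Myc and up to 4 members of each of 37 lists, clone and predicted names passed over. Other members complete a group and were chosen after their values were seen. Members, lists and rules were chosen with earlier results of these data known. The background correction and normalization were run on simulated arrays with large changes planted in clearly detected probes. Recovery of smaller changes, or of changes in dimmer probes, was not tested. Alternatives were other normalizations, background treatments, offset, detection rules, probe choice and a 1.5-fold threshold. Matches to the seeds in transcripts were not analysed here.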

Additional observations from a re-analysis of the deposited data

Results flagged for a closer look

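The following results had opposite directions in the pairs with MYC on and MYC off, and the difference between the pairs was not tested, since each group is 1 array. Calcoco1 had a log2 ratio of 1.08 with MYC on and -1.03 with MYC off, with raw signals of 151 and 220.1 in the control and miR-17-92 cells with MYC on and 556 and 312 with MYC off. Calcrl, which encodes a receptor of the calcitonin family, stood at 1.52 and -1.37, and Prodh, a mitochondrial proline dehydrogenase, at 1.11 and -1.25. Epb41l3, a cytoskeletal adaptor gene, stood at -1.26 and 1.08. Each of the 4 was detected on 1 of the MYC-on arrays and was analysed because of it, so its direction there is partly fixed by the filter. The bounds with MYC on were at least 1.02-fold higher for Calcoco1, 1.20-fold for Calcrl and 1.10-fold for Prodh, and at least 1.26-fold lower for Epb41l3. With MYC off both arrays detected Calcoco1, Calcrl and Prodh, and Epb41l3 was at least 1.55-fold higher.

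The DNA replication genes had a median log2 ratio of -0.14 with MYC on and 1.26 with MYC off, 34 of 42 below 0 in the first pair and 42 of 42 above 0 in the second. The histone genes had medians of -0.26 and 0.94, 16 of 19 below 0 and 18 of 19 above. The members of either list were read on the same arrays, so these counts are not of independent observations.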

How the results depend on the processing

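The number of arrays and signal near the detection floor limit every value, because most genes past 2-fold lay in the dimmest of 4 equal groups. The counts of 93 higher and 66 lower genes past 2-fold became 6 and 3 with the authors' processed values, 9 and 6 without background correction, 31 and 24 with an offset of 50, 15 and 18 with detection on both arrays, and 151 and 144 with a detection p of up to 0.05. Detection on both arrays moved the share of higher genes among them from 58.5% to 45.5%. Median scaling (76 and 48), quantile normalization of the MYC-on pair alone (74 and 52) and the mean of the probes (92 and 61) stayed within 1.5 times. The share of 2-fold genes with the same sign in the MYC-off pair, 79.8%, became 100% with the authors' values (9 of 9), without background correction (13 of 13) and with detection on both arrays (28 of 28), 88.4% with an offset of 50 (38 of 43) and 70.4% with a detection p of up to 0.05 (133 of 189). The share of next probes going the same way, 90.9%, became 100% with the authors' values (2 of 2), without background correction (4 of 4), with an offset of 50 (12 of 12) and with detection on both arrays (8 of 8). The detection rules changed which genes were analysed (7248 and 9175 in place of 7782). The other 3 of these alternatives kept the 7782 genes; leaving the background in or adding a larger offset lowers the ratios of dim probes by construction, and for the authors' values the cause was not tested.

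Of the 159 genes past 2-fold, 158 kept their sign in every setting that gave a value. For the 126 detected on 1 array the sign was partly fixed by the filter. The setting that requires detection on both arrays gave no value for them. Ctla4, Eno3, Tmsb10, Sh2d2a, Foxb1 and the clone-named 2810025M15Rik and 6530402F18Rik were past 2-fold in all 9 settings, and Sertad4 and Tcea3 in all but the one that requires detection on both arrays. The 9 include the main setting. For Ctla4, Eno3, Sh2d2a and both clone-named genes the detection rules and the mean of the probes returned the main value unchanged. All settings reprocess the same arrays and repeat no measurement. Of 34 list medians, 10 changed sign under at least 1 alternative, and a value is given beside each of them. The median of the 5 targets named by the study stayed between -0.36 and -0.20. Of 1461 alternative values of 188 single genes, 1210 stayed within the spread and 251 moved. No paired analysis was possible because the groups compared with MYC on hold 1 array each. A fit of the vector over both MYC states would estimate the mean of the 2 pairs, which is another quantity, and was not run. The planned comparison of genes with and without seed matches was not run.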
